A study of Mus musculus with 4 samples.

Results

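YAP and TAZ, their TEAD partners and a set of the genes they switch on were followed in cultures of mouse cortical neurons and of mouse cortical astrocytes. The 10 genes were taken from a fixed list of names and read on every probe set that the platform annotation assigns to them alone, with Cyr61 counted as Ccn1 and Ctgf as Ccn2. All 10 had a probe set, 23 probe sets in all, out of 18193 genes and 45037 probe sets on the array. The study hybridised 2 arrays per culture type to Affymetrix microarrays, starting from 50 ng of total RNA, and the titles describe the 2 as biological replicates. The labels name no genetic change and no drug treatment. Both groups came from C57BL6 mice: the neurons from fetuses of embryonic day 16, held 7 days in vitro with 1% fetal calf serum and glucose at 19.4 mM, and the astrocytes from newborns, held 20 days by the series' design text, with 10% serum and glucose at 33 mM. The neuron medium also held insulin, transferrin, progesterone, putrescine and selenite, and astrocyte cultures were washed of unattached cells on the day after plating. A protocol common to all samples states a shorter period, close to that of the neurons. Serum is a known stimulus of YAP and TAZ, and cell type, donor age, serum, glucose and time in culture all changed together, so they cannot be told apart. Nothing states whether replicates came from separate animals, so p-values measure only the spread between these arrays.

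YAP, encoded by Yap1, and TAZ, encoded by Wwtr1, are coactivators of transcription that do not bind DNA themselves and reach it through the TEAD family of factors. The Hippo kinase cascade holds them back: the MST kinases activate the LATS kinases, which phosphorylate YAP and TAZ and keep them out of the nucleus. Cell spreading, stiff substrate, growth at low density and serum relieve that restraint. In the brain YAP is known from neural progenitors and astrocytes and is low in most neurons. Transcript levels, which were measured here, do not report phosphorylation or nuclear location.

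The TEAD factors recognise the letters GGAATG. These letters were searched on both strands in the RefSeq promoter windows (mouse build GRCm38.p6) of 300 bases, 250 before and 50 after the start of a gene. A window was found for 8 of the 10 genes; Tead1 and Ccn2 had none in that table. At least 1 match lay in a window of 7 of these 8 genes (Tead2 was the exception) and in 9 of their 12 windows, where the windows of Wwtr1 and some of those of Tead3 overlap each other. Of all 32851 windows in the table, 14.7% held a match. The promoters of 3 target genes and of both coactivators are shown, up to the base before the start, because YAP and TAZ are known to reach target genes through this element; they are written 5′ to 3′ on the gene's strand with the matches in capitals, GGAATG or its reverse complement CATTCC.
Ccn1, chr3:145649986-145650235, minus strand: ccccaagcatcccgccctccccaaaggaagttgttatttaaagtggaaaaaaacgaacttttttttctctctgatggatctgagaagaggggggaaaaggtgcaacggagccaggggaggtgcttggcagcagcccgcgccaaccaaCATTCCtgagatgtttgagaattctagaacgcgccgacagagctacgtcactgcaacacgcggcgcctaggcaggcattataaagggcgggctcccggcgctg
Amotl2, chr9:102717554-102717803, plus strand: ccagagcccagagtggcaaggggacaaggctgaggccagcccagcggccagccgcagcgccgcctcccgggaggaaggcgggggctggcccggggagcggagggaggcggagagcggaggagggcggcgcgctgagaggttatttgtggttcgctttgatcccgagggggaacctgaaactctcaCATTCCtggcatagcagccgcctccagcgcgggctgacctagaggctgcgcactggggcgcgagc
Ankrd1, chr19:36119845-36120094, minus strand: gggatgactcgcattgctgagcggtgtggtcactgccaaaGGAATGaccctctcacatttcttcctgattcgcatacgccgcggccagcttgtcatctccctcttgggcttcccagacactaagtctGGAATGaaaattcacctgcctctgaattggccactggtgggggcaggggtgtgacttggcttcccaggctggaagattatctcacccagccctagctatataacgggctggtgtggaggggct
Yap1, chr9:8004597-8004846, minus strand: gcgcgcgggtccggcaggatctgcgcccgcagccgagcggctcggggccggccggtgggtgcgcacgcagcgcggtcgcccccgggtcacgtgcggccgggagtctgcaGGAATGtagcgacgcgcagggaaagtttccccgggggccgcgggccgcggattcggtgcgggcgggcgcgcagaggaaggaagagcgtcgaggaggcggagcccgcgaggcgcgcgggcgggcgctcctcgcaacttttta
Wwtr1, chr3:57575911-57576160, minus strand: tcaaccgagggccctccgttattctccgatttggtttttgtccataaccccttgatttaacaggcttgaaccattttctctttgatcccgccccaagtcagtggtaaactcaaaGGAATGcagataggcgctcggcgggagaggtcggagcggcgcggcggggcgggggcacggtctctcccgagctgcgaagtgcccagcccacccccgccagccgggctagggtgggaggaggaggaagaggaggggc

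The match began 103 bases before the start in Ccn1, 65 in Amotl2, 210 and 123 in Ankrd1, 141 in Yap1 and 136 in the first window of Wwtr1. In Lats2 the single match lay just past the start. The AP-1 letters TGANTCA were present in 7.81% of all windows and a CArG box, the element of serum response factor, in 1.63%. Neither had a match in the 12 windows. A match describes the letters only and is not a measured binding site.

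On the arrays the coactivators, 2 of the TEAD factors, both CCN genes, Amotl2 and Lats2 had more transcript in astrocyte cultures, by 1.64-fold to 48.0-fold depending on the probe set. For Tead3, the weaker of these TEAD factors, the call depended on the setting. Fold changes are taken on log2(signal + 12.5), which damps the noise of dim probe sets and understates large changes. A probe set was tested if 2 or more of the 4 arrays reached their own median signal; 17 of the 23 probe sets, from 8 of the 10 genes, met this. All 17 tested probe sets were higher in astrocytes at an adjusted p below 0.05 (limma), against 27.7% of all tested probe sets. None was higher in neurons, against 29.4%, and the count was 0 also at an unadjusted p under 0.05 in limma. Of the 17, 5 had both neuron arrays under the array median and entered through the astrocyte arrays. The filter thus all but fixed their direction, and the count over the 17 is a description. Over all 23 probe sets, tested or not, both astrocyte arrays lay above both neuron arrays in 20 and the groups overlapped in 3, against 27.4% of all probe sets with the astrocyte arrays on top. The median log2 fold change (astrocytes minus neurons) of the 23 was 2.39, beside -0.06 for all probe sets.

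**Figure D1:**
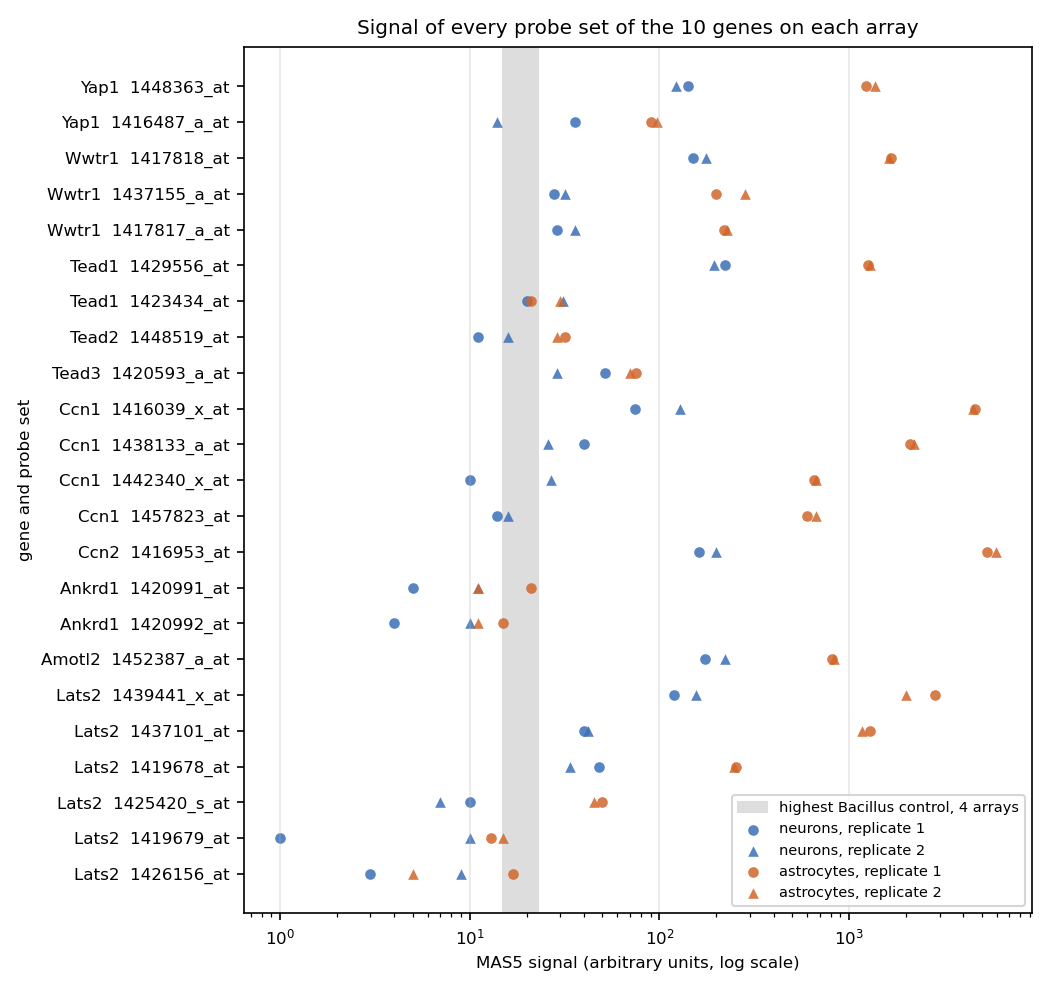
MAS5 signal (arbitrary units, log axis) of the 23 probe sets of the 10 genes on the 2 neuron arrays (blue) and the 2 astrocyte arrays (orange); the grey band spans the highest Bacillus control signals of the 4 arrays, 15 to 23. The orange points lie to the right of the blue ones in 20 probe sets, and both Ankrd1 probe sets lie within or below the band on every array.

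By their brightest probe sets the coactivators were read well above background in both cultures. The background of an array was taken as its highest signal among 27 control probe sets for Bacillus subtilis transcripts, 21 and 23 in the neuron samples and 17 and 15 in the astrocyte samples. Yap1 read 141 and 122 in neurons and 1230 and 1364 in astrocytes by its brighter probe set (1448363_at). The astrocyte arrays were far above the neuron arrays and the replicates were close. The difference was 9.10-fold (131.5 ± 13.4 against 1297 ± 94.8, mean ± SD, n = 2 here and below), a log2 fold change of 3.19 with a standard error of 0.14 (adjusted p = 5.68e-07). The dimmer Yap1 probe set, 1416487_a_at, read 36 and 14 in neurons, the second of these under background, and 90 and 97 in astrocytes, and gave 2.96-fold (adjusted p = 0.00216). With astrocytes replicate 1 left out its adjusted p was 0.0782, and 0.0884 without replicate 2, so its call rested on having both astrocyte arrays.

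Wwtr1, the gene of TAZ, gave 151 and 177 in neurons and 1660 and 1617 in astrocytes by probe set 1417818_at. Again the groups were far apart, by 9.38-fold (164 ± 18.4 against 1638.5 ± 30.4; log2 fold change 3.23, standard error 0.13, adjusted p = 4.35e-07). Its other probe sets were dimmer. They read 28 and 32 against 199 and 283 for 1437155_a_at (5.89-fold), and 29 and 36 against 219 and 227 for 1417817_a_at (5.25-fold). Both were tested through the astrocyte arrays alone, so the filter all but fixed their direction. In these bulk cultures fewer cells expressing a gene and less RNA per cell cannot be told apart.

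Among the DNA-binding partners, Tead1 was the one with a clear signal. Probe set 1429556_at read 223 and 194 in neurons and 1266 and 1294 in astrocytes, with no overlap. That is a 5.86-fold difference (208.5 ± 20.5 against 1280 ± 19.8; log2 fold change 2.55, standard error 0.13, adjusted p = 1.16e-06). The second Tead1 probe set disagreed: 1423434_at read 20 and 31 in neurons and 21 and 30 in astrocytes, overlapping values near background that were too dim to be tested. Tead3 read 52 and 29 in neurons and 75 and 70 in astrocytes. The groups did not touch and the 1.64-fold difference had an adjusted p of 0.042 in limma, but this depended on the setting. It was 0.127 with no filter on dim probe sets and 0.0535 with 0.25 times the offset. With 4 times the offset, other scalings, no mean-variance trend or a replicate block it lay between 0.0198 and 0.0418. The log2 fold change of 0.72 was 1.03 without neurons replicate 1 and 0.40 without neurons replicate 2. It was 0.67 without astrocytes replicate 1 and 0.76 without astrocytes replicate 2. Tead2, a TEAD factor known from early neural development, read 11 and 16 in neurons, under background, and 32 and 29 in astrocytes. It was too dim to be tested; against background the astrocyte signal was at least 1.39-fold higher.

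The secreted matricellular proteins CCN1 and CCN2 are the targets most often used as readouts of YAP and TAZ, and they gave the 3 largest fold changes among the 23 probe sets. Ccn1 was measured by 4 probe sets. By 1416039_x_at it read 74 and 129 in neurons and 4612 and 4522 in astrocytes, and by 1438133_a_at 40 and 26 against 2092 and 2204. Relative to their mean, the neuron replicates differed more from each other than the astrocyte replicates, in opposite order in these probe sets, and all lay far below the astrocyte arrays. The folds were 41.4 (log2 fold change 5.37, standard error 0.21, adjusted p = 3.25e-07) and 48.0 (log2 fold change 5.59, standard error 0.18, adjusted p = 1.56e-07). The third, 1442340_x_at, read 10 and 27 against 650 and 671, a 22.6-fold difference. By 1457823_at both neuron arrays, at 14 and 16, were under background while the astrocyte arrays read 597 and 669, so Ccn1 was at least 28.8-fold higher there. Both of the last were tested through the astrocyte arrays alone, so the filter all but fixed their direction. The size of their change depends on the offset.

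Ccn2 had 1 probe set, with 161 and 200 in neurons and 5331 and 5970 in astrocytes. The neuron signal was well above background and still 29.4-fold lower than that of astrocytes (180.5 ± 27.6 against 5650.5 ± 452; log2 fold change 4.88, standard error 0.14, adjusted p = 1.35e-07). Amotl2, a junctional protein of the angiomotin family that binds YAP and restrains it, read 175 and 221 in neurons and 812 and 837 in astrocytes. This was a smaller change than in Ccn1 or Ccn2, 4.00-fold (198 ± 32.5 against 824.5 ± 17.7; log2 fold change 2.00, standard error 0.15, adjusted p = 8.96e-06).

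Ankrd1, a nuclear ankyrin-repeat protein of muscle and another common YAP target, lay at or near background in both cultures. Its probe sets read 5 and 11 in neurons and 21 and 11 in astrocytes (1420991_at) and 4 and 10 against 15 and 11 (1420992_at). The single value above the background of its array was the 21 in astrocytes replicate 1, and neither probe set was bright enough to be tested. Its promoter window held 2 GGAATG matches, more than that of Ccn1 or Amotl2.

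**Figure D2:**
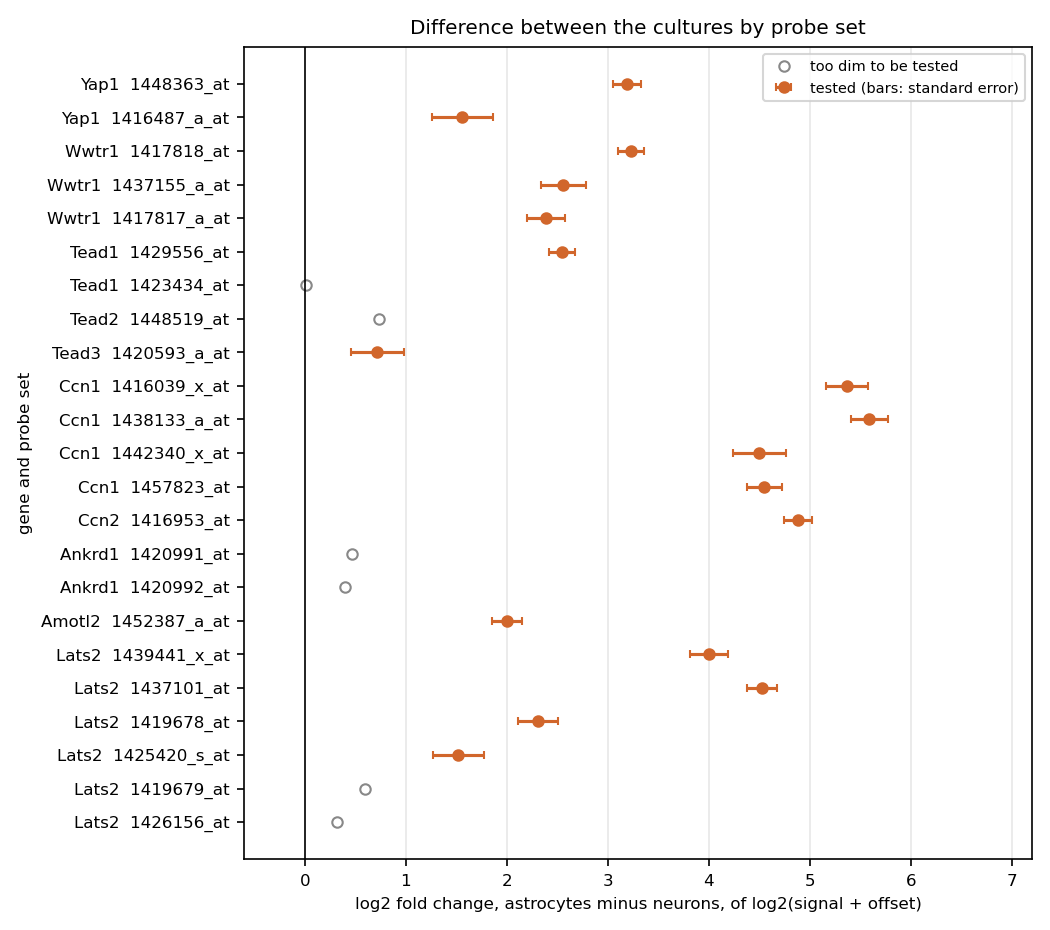
Log2 fold change, astrocytes minus neurons, of the 23 probe sets; bars are standard errors of the limma fit with 2 arrays per group, and open circles mark the 6 probe sets too dim to be tested. The 4 Ccn1 probe sets and Ccn2 lie between 4.50 and 5.59, the brighter Yap1 and Wwtr1 probe sets at 3.19 and 3.23, and Tead3 at 0.72.

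Lats2, the kinase that phosphorylates YAP and TAZ and is itself one of their targets, was also far higher in astrocytes. Probe set 1439441_x_at read 120 and 156 in neurons and 2825 and 2001 in astrocytes, where the replicates differed from each other but not enough to approach the neurons. The fold was 16.0 (138 ± 25.5 against 2413 ± 583; log2 fold change 4.00, standard error 0.19, adjusted p = 8.03e-07). By 1437101_at it was 23.2, from 40 and 42 against 1290 and 1166 (log2 fold change 4.53, standard error 0.15, adjusted p = 1.63e-07). Of its other probe sets, 1419678_at gave 4.96-fold and 1425420_s_at at least 2.16-fold, both past the threshold. The latter, at 10 and 7 in neurons against 50 and 45, was tested through the astrocyte arrays alone, so the filter all but fixed its direction. The last 2, 1419679_at and 1426156_at, read between 1 and 17 on all arrays, and were too dim to be tested. Probe sets of 1 gene thus differed in the size of the change, and in Lats2 and Tead1 some showed no signal above background or no difference.

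Changes of at least 8-fold were found in 9 of the 17 tested probe sets, from Yap1, Wwtr1, Ccn1, Ccn2 and Lats2, against 2.01% of all tested probe sets. Since the list was drawn up with results of these arrays known, these counts describe the genes and are not independent evidence of a direction.

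The rest of the Hippo pathway did not move as one. A list of 26 further components held 23 measured genes, of which 13 were higher in astrocytes and 5 in neurons, and 5 did not pass the threshold. Of all 12040 genes read, 31.2% were higher in astrocytes and 31.1% in neurons. The median log2 fold change of the 23 was 1.05, and 0.65 over the 25 with a probe set, beside -0.02 for all genes. In the kinase module, 2 of the 8 measured genes were higher in astrocytes (Sav1 and Mob1a, partners of the MST and LATS kinases). Another 2 were higher in neurons (the kinases Map4k4 and Taok3), and 4 did not pass (Stk4, Lats1, Mob1b and Taok1). The 2 of 8 in each direction lay near the shares of all genes, so these counts do not set the module apart. Apart from Lats1 these 8 are named after their values were seen. The probe sets of Map4k4 disagreed, and their average had an adjusted p of 0.624 (log2 fold change -0.08). Mob1b passed with each array centred on its median (adjusted p = 0.0288) and with probe sets averaged by gene (adjusted p = 0.0441). Lats1, the paralogue of Lats2, was measured at 452 and 498 in neurons and 590 and 582 in astrocytes (1.23-fold, log2 fold change 0.30, standard error 0.13, adjusted p = 0.0758). The groups did not touch, and with each array centred on its median the adjusted p was 0.0277; it was 0.0477 in the fit with probe sets averaged by gene.

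Upstream regulators, many of them at the membrane and at cell junctions, made up most of the called genes, with 10 of 13 higher in astrocytes and 3 in neurons. For 1 of the 10, Amot, named after its value was seen, averaging its probe sets ended the call (log2 fold change 0.30, adjusted p = 0.0886). Rassf1, also named after its value was seen, had a small change (log2 fold change 0.65, adjusted p = 0.00746), between 0.49 and 0.80 with 1 array left out. Ajuba, a LIM protein of adherens junctions that binds and restrains LATS kinases, read 41 and 30 in neurons and 562 and 615 in astrocytes, 12.6-fold higher (adjusted p = 9.17e-07). Frmd6, a FERM-domain protein of the pathway, was 7.89-fold higher in astrocytes, from 80 and 96 against 751 and 806 (adjusted p = 1.11e-06). The 3 genes higher in neurons were Fat4, Dchs1 and Nf2. Fat4 and Dchs1 encode a receptor and ligand pair of giant cadherins; Fat4 read 350 and 388 in neurons and 105 and 84 in astrocytes (3.58-fold, adjusted p = 2.93e-05), and Dchs1 read 90 and 83 against 21 and 32 (2.56-fold, adjusted p = 0.00115). Nf2, the gene of the tumour suppressor merlin, read 477 and 481 in neurons and 248 and 301 in astrocytes (1.72-fold, adjusted p = 0.0019, and 0.0505 without neurons replicate 2).

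Of the vestigial-like cofactors, which bind TEAD proteins, 1 of 2 differed. Vgll3, known to bind TEAD factors in place of YAP, read 27 and 39 in neurons and 813 and 680 in astrocytes. This was the largest change of the list, 16.8-fold (33.0 ± 8.49 against 746.5 ± 94.0; adjusted p = 7.38e-07). Its relative Vgll4 read 248 and 214 against 257 and 322 and did not pass the threshold (1.24-fold, adjusted p = 0.152). Tead4 was too dim to be tested, at 4 and 7 in neurons and 3 and 30 in astrocytes.

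A further 17 genes known as YAP and TAZ targets from cancer cells were taken as a list. Of 15 that were measured, 12 were higher in astrocytes, 1 was higher in neurons and 2, Asap1 and Arhgef17, did not pass the threshold, beside 31.2% and 31.1% of all genes. Of the 12, 2 (Myof and Dock5) had both neuron arrays under the array median and were measured through the astrocyte arrays. The filter thus all but fixed their direction, and the count is a description. The median log2 fold change was 2.23 over the 15 and 1.63 over all 17, each of which had a probe set. The probe sets of Arhgef17 disagreed: the one that reads the gene gave -0.27 (adjusted p = 0.361), and its other tested probe set gave 1.17 (adjusted p = 0.0018). Nuak2, a kinase of the AMPK family, read 68 and 70 in neurons and 1191 and 1283 in astrocytes, 15.3-fold higher (adjusted p = 2.09e-07). Gadd45a, a stress-response gene, was 12.4-fold higher (38 and 45 against 665 and 642; adjusted p = 5.68e-07). F3, which encodes tissue factor, the starter of coagulation, was 11.7-fold higher (228 and 211 against 2870 and 2552; adjusted p = 2.1e-07). In the other direction, Fjx1, a secreted kinase-like protein related to fly four-jointed, read 190 and 200 in neurons and 122 and 109 in astrocytes (1.62-fold, adjusted p = 0.00622). It missed the threshold without neurons replicate 2 (0.0545) or astrocytes replicate 2 (0.0664).

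**Figure D3:**
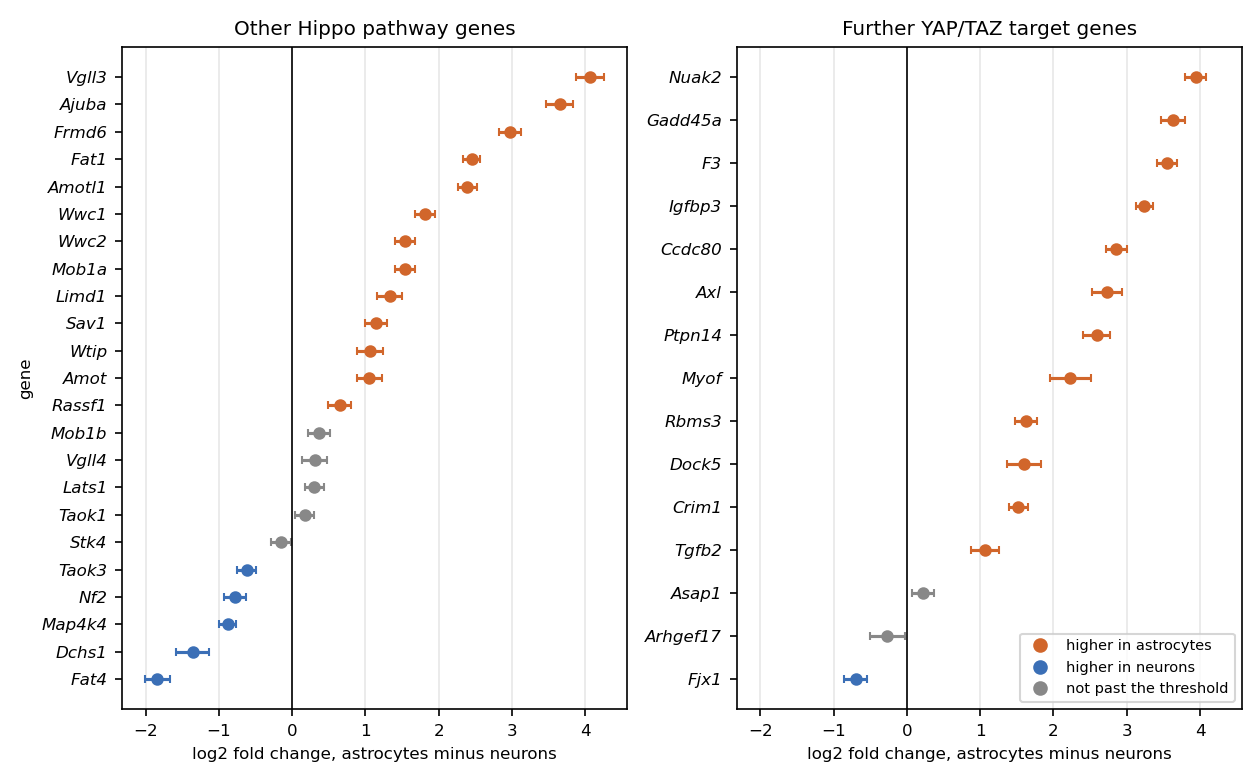
Log2 fold change (astrocytes minus neurons, bars: standard error, 2 arrays per group) of the 23 measured further Hippo genes (left) and the 15 measured further target genes (right), in order of size. On the left the values run from -1.84 (Fat4) to 4.07 (Vgll3); on the right 12 of 15 are higher in astrocytes and Fjx1 is the only one called in neurons.

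Across all genes, the TEAD letters were only slightly more frequent near the starts of genes with higher signals in astrocytes. Of the genes read that had a promoter window, 14.4% held GGAATG in at least 1 window. The share was 16.3% among those higher in astrocytes and 13.8% among those higher in neurons. These shares are a description, without a test, and the windows differ in base composition.

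The profiles of Yap1 and Wwtr1 were shared with many other genes. With log2 values centred on the mean of the 4 arrays, the genes outside all lists that lay nearest to Yap1 were Smpdl3a, Slc25a18 and Ddr2, at Euclidean distances of 0.041, 0.051 and 0.062. Those nearest to Wwtr1 were Gbp2 (0.045), Phyh (0.075) and Ccdc141 (0.081); Gbp2 was under background on both neuron arrays, at 7 and 10, so its distance depends on the offset. Within a distance of 0.5 there were 167 genes for Yap1 and 191 for Wwtr1 of 11958 compared, as 4 arrays in 2 groups leave few distinct profiles.

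Markers of several cell types differed between the cultures along with the 10 genes. All 7 neuron markers were higher in neurons, and 6 of 7 astrocyte markers were higher in astrocytes. The neuron markers summed to 26007 and 25752 in neurons and to 3061 and 2875 in astrocytes. On the astrocyte arrays Stmn2 read 1465 and 1485 and Map2 1487 and 1269. Each of the other neuron markers read between 1 and 68 there. The summed signal of the astrocyte markers was 4015 and 4435 in neurons and 15037 and 14838 in astrocytes. Aqp4, the water channel of astrocyte endfeet, read 551 and 701 in neurons and 4668 and 3859 in astrocytes. Gfap read 2, under background, and 109 in neurons, and 1744 and 2133 in astrocytes. Astrocyte marker transcripts were thus present in the neuron cultures, and their part in the Yap1, Wwtr1, Tead1 and Ccn2 signals of those arrays was not tested. Oligodendrocyte lineage markers had summed signals of 2423 and 2518 in neurons and 700 and 600 in astrocytes, with 4 of 5 measured genes higher in neurons. Olig2 did not pass the threshold, at 663 and 642 in neurons and 617 and 508 in astrocytes.

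Markers of mural and smooth muscle cells had summed signals of 181 and 557 in neurons and of 8139 and 8975 in astrocytes, with 4 of 5 measured genes higher in astrocytes. Tagln, an actin-binding protein of smooth muscle, read 6 and 95 in neurons and 2691 and 3331 in astrocytes, and Acta2, smooth muscle actin, 87 and 361 against 4544 and 4791. Pdgfrb, the receptor of pericytes, read 15 and 44 against 561 and 479. Cnn1 read 22 and 5 against 282 and 313. The remaining markers of the list were dim: Myh11, the smooth muscle myosin, was at 11 and 2 in neurons and 3 and 16 in astrocytes, and Kcnj8 and Rgs5 read between 13 and 36 on all arrays. Fibroblast and meningeal markers summed to 1634 and 1827 in neurons and 3849 and 4095 in astrocytes, with 4 of 7 higher in astrocytes and 2 in neurons. Islr, a secreted leucine-rich protein, read 29 and 32 against 2465 and 2689, and the transcription factor gene Foxc1 read 8 and 13 against 368 and 326, whereas Pdgfra, a growth factor receptor of fibroblasts and of oligodendrocyte precursors, read 1177 and 1302 in neurons against 19 and 21, and Lum, a matrix proteoglycan, 40 and 45 against 23 and 17. Pdgfra is in both the fibroblast and the oligodendrocyte lists; without it the fibroblast sums were 457 and 525 in neurons and 3830 and 4074 in astrocytes. Microglia markers summed to 114 and 151 in neurons and 743 and 762 in astrocytes, with 4 of 5 measured genes higher in astrocytes. Endothelial markers stayed between 98 and 131 on all arrays, with Pecam1 at 18 and 3 in neurons and 4 and 2 in astrocytes. No marker was listed at 0 on both neuron arrays. Some markers of each called list other than the astrocyte one were under the median on both arrays of the lower group (4 of the 5 measured microglia markers, for example), so these marker counts are descriptions too. The part of fibroblasts, mural cells or microglia in the Ccn1, Ccn2 and Lats2 signals was not tested.

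**Figure D4:**
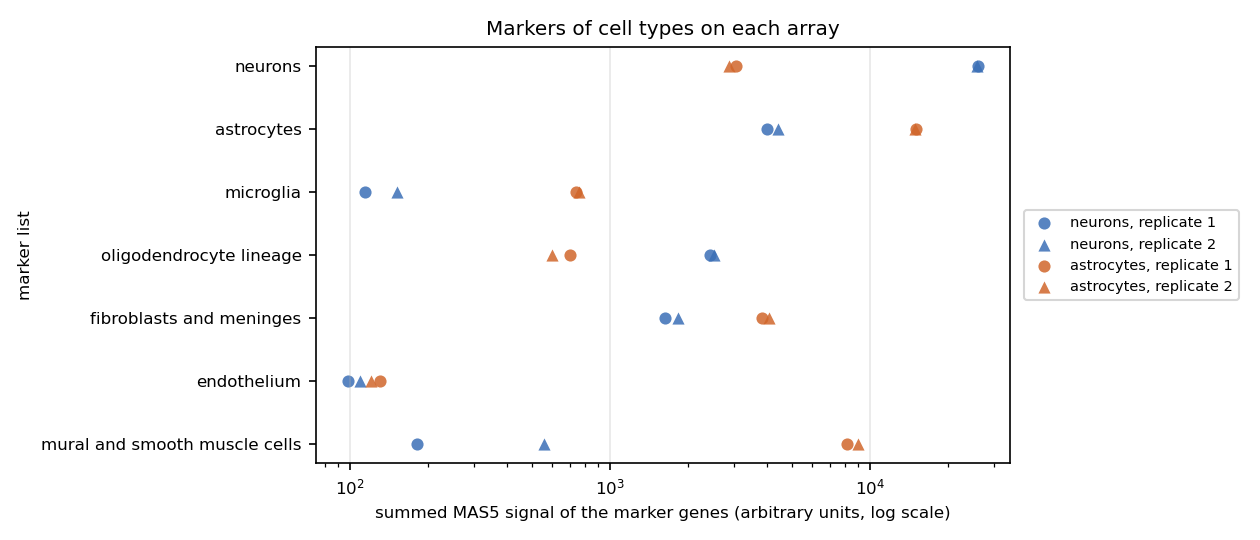
Summed MAS5 signal (arbitrary units, log axis) of the marker genes of 7 cell types on each array. Astrocyte, microglia, fibroblast and mural sums are higher on both astrocyte arrays, neuron and oligodendrocyte lineage sums on both neuron arrays, and the endothelial sums stay between 98 and 131.

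The trimmed mean lay between 149.997 and 150.002 on all arrays. Scaling to a common target fixes this value, so it does not show that the arrays were alike. Replicate correlations across probe sets were 0.977 and 0.978. With 2 arrays per group an exact permutation test of 1 gene cannot give a two-sided p below 0.333, so every test here borrows its spread from the other probe sets.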

How the data were processed

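The deposited table holds whole-number signal intensity on a linear scale, which the authors derived with MAS5 according to the submitters' processing notes (version: not given in the sources used). Per the labels' protocols, RNA was amplified in 2 cycles. The 64 control probe sets were set aside. For 34741 probe sets the symbol was taken from the RefSeq table by Entrez identifier, whether or not it changed.

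The offset of 12.5 is the median of the arrays' 25th percentiles. Differences across the 25019 kept probe sets were tested with limma 3.58.1 (R 4.3.3; two-sided, with a mean-variance trend in eBayes, prior degrees of freedom 6.27), adjusted by Benjamini-Hochberg over all of them at 0.05, after a test on simulated data. The number of arrays limits the precision. Other genes were read by their brightest kept probe set. "At least" folds compare the mean log2 signal with the mean log2 background, without the offset.

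The 10 genes and all lists were chosen with earlier results of these data known. Named were every probe set of the 10; from each other list up to 3 of the largest called changes in its main direction and up to 2 in the other; Lats1, Nf2, Tead4 and Vgll4; and the 3 profiles nearest to Yap1 and to Wwtr1. Marker genes were named only where a result touches them. Stmn2, Map2, Olig2, Gfap, Cnn1, Kcnj8, Rgs5, Myh11 and Pecam1 were named after their values were seen. Alternatives covered the offset, the filter, the scaling, the variance model, a replicate block, the choice of probe sets and each array left out.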

Additional observations from a re-analysis of the deposited data

How the results depend on the processing

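The 17 member probe sets higher in astrocytes became 14 to 17 under 8 other settings of offset, filter, scaling, variance model and replicate block, 15 to 17 with 1 array left out, and 7 without probe sets ending in _x_at, _s_at or _a_at, which can match several transcripts and are fewer by construction. None was higher in neurons under these settings. The median log2 fold change of all 23 member probe sets, 2.39, was 1.82 with 4 times the offset, 2.60 with 0.25 times it, 2.50 with each array centred on its median (which moved the median of all probe sets by 0.11), 3.19 over tested probe sets (chosen after seeing the data) and 3.61 with the filter at the 75th percentile, and 2.33 to 2.49 with 1 array left out. The further Hippo genes higher in astrocytes numbered 11 to 15, against 13. The single target higher in neurons was 0 to 1 with 1 array left out. All probe sets higher in astrocytes were 4440 to 5272 with 1 array left out, against 6936, and those higher in neurons 4769 with the filter at the 75th percentile, against 7367. Arhgef17, whose probe sets disagree, at -0.27 by the one that reads the gene, lay between -0.60 and 0.05 with 1 array left out and was 0.45 with its probe sets averaged. Replicate numbers were shared but did not pair the arrays (correlation of deviations -0.09); with the replicate block the counts were 17 member probe sets, 13 and 5 further Hippo genes, 12 and 1 targets, and 6886 and 7303 probe sets. Of single probe set comparisons for the 10 genes, 194 kept call and direction and 7 lost the call, all for Tead3 or the dimmer Yap1 probe set. Dim probe sets (Tead2, Ankrd1, Tead4) limit what can be said of these genes.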
